A study of Homo sapiens with 6 samples.

Results

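Solute carriers are membrane proteins that move sugars, amino acids, ions, metals, nucleotides and vitamins across the plasma membrane, organelle membranes and the inner membrane of mitochondria. The SLC25A family lies mainly in that inner membrane, links mitochondrial metabolism with the cytosol, and is made on free ribosomes, whereas most other carriers are made at the endoplasmic reticulum. Tumour cells are known for high uptake of glucose through SLC2A carriers and of amino acids through SLC1A, SLC7A and SLC38A carriers. The genes described here are the protein-coding genes whose symbol starts with SLC, a family number and A, and whose counts summed to at least 200 over the 4 libraries of cells that received a miR-99b-5p mimic. These were 178 of 341 such genes, among 13078 genes tested. They comprised 37 SLC25A genes, 38 carriers of other intracellular membranes and 17 carriers whose place is unsettled. The 82 carriers listed under the plasma membrane are all other members of the numbered form, so some may lie elsewhere. The last 4 genes were outside the numbered form. Of these 4, SLC4A1AP, SLC7A6OS and SLC2A4RG are only named after a carrier, and SLC51A is a bile acid and steroid carrier subunit. SLC25A17 is counted with its family although it is known from peroxisomes. Just outside the count limit were SLC13A3 with 197 and SLC2A10 with 193 counts, and just inside it SLC45A1 and SLC52A3 with 203 each. SLC25A6, an ADP/ATP carrier in the region that the X and Y chromosomes share, was listed at 0 in all 6 libraries, and the lactate carrier SLC16A1 did not reach the limit.

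All libraries came from MDA-MB-231, a line of human breast cancer cells without hormone receptors or amplified ERBB2 (triple-negative), transfected at 25 nM with the miR-99b-5p mimic or with a scrambled control and harvested after 18 hours. AGO2, the protein that holds a microRNA on its target mRNAs, was pulled down with an antibody, and RNA was sequenced from the immunoprecipitate (AGO2-IP, or IP) and from the flow-through that the beads left behind. Mimic cells gave 2 IP and 2 flow-through libraries, and control cells 1 of each. The 2 mimic libraries of a fraction were labelled biological replicates 1 and 2, which the methods describe as independent, and p-values measure the spread between them. The labels give each control library its fraction, whereas the study's sequencing table lists both as control replicates with no fraction and gives the library labelled control IP another read total than its file. The labels were used, and every value of control IP or control flow-through rests on them. VIM, a marker of this mesenchymal line, was at 129 to 594 CPM (gene counts scaled to one common library total), and ESR1, PGR and CDH1 were at most 3.96. ERBB2, also listed as a low marker, ran from 37.7 to 172 CPM, and in control IP its 172 CPM came near the 191 of VIM. Counts on genes ran from 38022779 to 48544756 in the mimic libraries, and were 8076375 and 7772149 in control IP and flow-through. Reads not assigned to a gene made up 21.4% to 47.2% of the mimic libraries but 95.0% and 92.3% of control IP and flow-through, and mitochondrially encoded genes held 43.4% of the gene counts of control flow-through and 3.48% of control IP against at most 0.125% in the mimic libraries. With 1 control library per fraction, these differences cannot be told apart from those of the transfection.

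The mimic carries the sequence of hsa-miR-99b-5p, encoded on chromosome 19 (51692618 to 51692639, plus strand, GRCh38.p14, RefSeq). Its seed, bases 2 to 8, is in capitals, since this stretch pairs with target mRNAs.
hsa-miR-99b-5p: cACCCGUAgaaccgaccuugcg

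The seed's core match in an mRNA is ACGGGT, which TACGGGT and ACGGGTA extend by a base and TACGGGTA by a base on each side. ACGGGT was present on the sense strand of the annotated transcript of 26 members (14.6%), against 17.1% of all protein-coding genes tested, and in the 3′ UTR of 15 members (8.43%), against 6.67%. Just 1 member held TACGGGTA, SLC29A4, a monoamine and nucleoside carrier, in its coding sequence. The 22 bases that end with this match are shown because it is the longest, and those that end with the TACGGGT match in the 3′ UTR of SLC12A2, a sodium-potassium-chloride cotransporter, as an example of a match in a 3′ UTR (match in capitals, GRCh38 with GENCODE 44; SLC29A4 was chosen after its values were seen).
SLC29A4, coding sequence, chr7:5294863-5294884, plus strand: agcaatccagcttcTACGGGTA
SLC12A2, 3′ UTR, chr5:128188418-128188439, plus strand: cctagtagctgggacTACGGGT

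Of these 2 seed-matched carriers, SLC29A4 was lower in mimic IP than in the flow-through, without a call, and SLC12A2 overlapped. In mimic IP both genes lay below the control IP. SLC29A4 stood at 0.51 and 2.05 CPM after TMM normalisation (1 scale for all 6 libraries) in mimic IP libraries 1 and 2, 2.38 and 8.60 in mimic flow-through libraries 1 and 2, 3.64 in control IP and 5.36 in control flow-through. Both mimic IP values lay below both flow-through values (log2 fold change -1.95, SE 0.98, adjusted p = 0.247). SLC12A2 stood at 26.7 and 35.4 CPM in mimic IP, 26.3 and 26.8 in mimic flow-through, 62.2 in control IP and 28.01 in control flow-through. Its mimic IP values were thus close to the flow-through and below the control IP (log2 fold change over flow-through 0.39, SE 0.62, adjusted p = 0.727). The 26 members with ACGGGT had a median log2 fold change of -0.42 over the flow-through and the 152 without it one of -0.34. For the log2 ratio of mimic over control IP, described further on, the medians were -1.30 for 23 members with the match and -0.96 for 134 without it, against -0.08 and 0.02 over protein-coding genes with and without it.

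Compared per length, as TPM (counts per kilobase of merged exons, scaled to one total per library), the phosphate carrier SLC25A3, which feeds ATP synthesis, was the most abundant carrier by its mean over the mimic libraries. It stood at 890 and 534 TPM in mimic IP, 130 and 33.4 in mimic flow-through, 410 in control IP and 31.9 in control flow-through. SLC7A5, the large neutral amino acid carrier, followed with 233 and 599 in mimic IP and 254 and 401 in mimic flow-through, and the ADP/ATP carrier SLC25A5 with 333 and 304 against 525 and 79.7. Libraries of a fraction spread so widely that the order of these 3 genes was not the same in each library. In both mimic flow-through libraries SLC25A3 was below SLC7A5 and SLC25A5, so its first rank by the mean rests on the IP libraries. Among the glucose carriers, SLC2A1 had 52.1 and 80.6 TPM in mimic IP and 53.2 and 40.6 in the flow-through, and SLC2A3 had 45.2 and 58.3 against 3.43 and 1.11. Protein-coding genes tested held 98.4% to 98.6% of gene counts in mimic IP but 86.8% and 72.4% in mimic flow-through libraries. TPM also depends on the lengths of all other genes counted in a library, so these values are not compared between fractions. By CPM, given further on, both SLC2A1 values of mimic IP lay below both of the flow-through, which its TPM values did not. The members together took 0.774% and 0.751% of the gene counts of mimic IP, 0.870% and 1.0% of mimic flow-through, 1.35% of control IP and 0.642% of control flow-through.

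The first comparison asked which carrier mRNAs differed between IP and flow-through of the mimic-transfected cells. No member passed the call, an absolute log2 fold change of 1 or more with an adjusted p of at most 0.05 in edgeR's quasi-likelihood test, where 0.245% of all genes tested were called higher in the IP and 0.413% lower. The smallest adjusted p of a member was 0.0647, for SLC2A3. At an unadjusted p under 0.05 there were 9 members with higher and 33 with lower IP values, 5.06% and 18.5% against 10.6% and 13.1% of all genes. With the replicate number as a block, 3 members were called higher, SLC2A3, SLC37A3 and SLC25A30 (background 4.6%), and 7 lower, SLC25A1, SLC25A39, SLC25A23, SLC2A6, SLC4A3, SLC15A3 and SLC22A18 (background 5.08%), the last 3 named here after their values were seen. DESeq2 called 5 higher (background 6.74%) and 16 lower (background 8.5%), which included all 10 of the blocked calls. The shares of members called by these fits were below the background in the higher direction and near it in the lower direction. The values also moved when a flow-through library was left out. The median log2 fold change of the members was -0.57 without flow-through replicate 1 and -0.22 without replicate 2, against 0.08 and -0.0054 over all genes.

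Without a call, the members leaned towards the flow-through. Both IP values lay above both flow-through values in 31 members, 17.4% against a background of 28.1%, and below them in 70 members, 39.3% against a background of 28.5%, while 77 overlapped (normalised over the 4 mimic libraries). The median log2 fold change was -0.35 over the members and -0.11 over all genes tested. By place it was -0.30 for the SLC25A genes, -0.48 for the plasma membrane carriers, -0.18 for the other intracellular carriers and -1.03 for those of unsettled place. The libraries of a fraction differed among themselves by an SD of log2 differences of 0.75 (IP) and 1.36 (flow-through) over the members. These values moved with the GC content of the transcripts: the log2 fold change had a Spearman's rho with GC of -0.71 across the 178 members and of -0.53 across all genes tested, and the difference between the 2 flow-through libraries one of -0.80 across the members, where genes share libraries and are not independent. Members with a GC content under 45% had a median log2 fold change of 0.34 (n = 60), those of 45% to 55% one of -0.30 (n = 41) and those over 55% one of -1.47 (n = 77), where protein-coding genes of the same classes had 0.63, 0.03 and -1.16. With each library's GC trend removed, the median log2 fold change was -0.35 over the members and -0.05 over all genes tested. By place it was then -0.36 for SLC25A, -0.39 for the plasma membrane, -0.14 for other intracellular carriers and -0.11 for those of unsettled place. The part of GC content in the result was not tested for single members. In 9 members the fraction with the lower counts held fewer than 100 counts. Reads were counted without regard to strand, and 115 members overlap a gene on the opposite strand, with which their reads can be confused. Less RNA per cell and fewer cells that express a gene cannot be told apart in these bulk libraries.

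**Figure D1:**
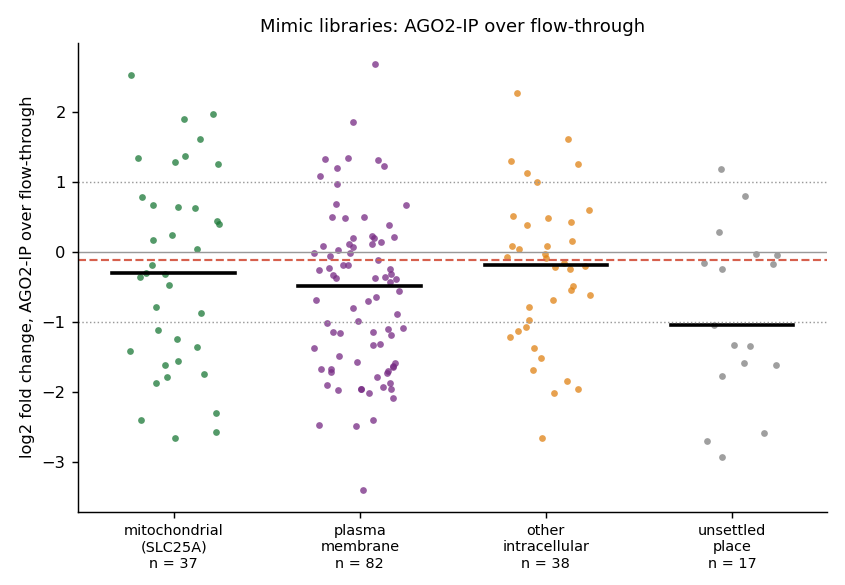
Log2 fold change of mimic IP over mimic flow-through for each member (points) by the place of its protein, with the median of each group (black bar), the median of all genes tested (dashed line, -0.11) and the size limits of the call (dotted lines). The SLC25A genes spread over both sides, from -2.66 to 2.54, and the plasma membrane carriers lie mostly below 0.

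The mitochondrial carriers lay on both sides. Of 37 SLC25A genes, 11 had both IP values above the flow-through (29.7%, near the background of 28.1%) and 17 both below it (45.9%, background 28.5%), and 9 overlapped. The 4 named for the highest fold change were SLC25A30, SLC25A14, SLC25A26 and SLC25A13. SLC25A30 (chromosome 13, 45393316 to 45418455), a kidney mitochondrial carrier protein, stood at 78.4 and 202.5 CPM in mimic IP, 32.01 and 22.4 in mimic flow-through, 132.8 in control IP and 41.1 in control flow-through. Every IP value thus exceeded every flow-through value, in mimic and control alike (log2 fold change 2.54, SE 0.69, adjusted p = 0.0826; 2.40, SE 0.78 and 0.0317 with the block). SLC25A26, which brings S-adenosylmethionine into mitochondria, stood at 67.9 and 50.2 CPM against 19.6 and 15.5 (log2 fold change 1.91, SE 0.62, adjusted p = 0.117). SLC25A13, the aspartate/glutamate carrier citrin, stood at 60.7 and 95.5 against 30.6 and 26.4 (1.62, SE 0.61, 0.152), and SLC25A14 at 23.4 and 10.3 against 7.15 and 2.43 (1.98, SE 0.81, 0.174).

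At the other end stood SLC25A1, SLC25A10, SLC25A39 and SLC25A23. SLC25A1 (chromosome 22, 19175581 to 19178739), the citrate carrier that exports carbon for fatty acid synthesis, stood at 17.4 and 22.05 CPM in mimic IP, 83.6 and 193.2 in mimic flow-through, 50.8 in control IP and 109.2 in control flow-through. Its mimic IP values were the lowest of the 6 (log2 fold change -2.66, SE 0.68, adjusted p = 0.0737; -2.54, SE 0.76 and 0.0174 with the block). SLC25A39, which carries glutathione into mitochondria, stood at 48.4 and 49.96 CPM against 173.5 and 399.9 (-2.39, SE 0.66, 0.0847; 0.0356 with the block). SLC25A23, an ATP-Mg/phosphate carrier, stood at 27.2 and 30.3 against 138.1 and 175.2 (-2.29, SE 0.61, 0.0813; 0.0327 with the block), and the dicarboxylate carrier SLC25A10 at 6.13 and 5.47 against 15.9 and 60.0 (-2.56, SE 0.79, 0.103). All 3 di- and tricarboxylate carriers among the members had log2 fold changes of -1.61 or lower.

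Carriers of 1 substrate could lie on opposite sides. SLC25A3, the phosphate carrier, stood at 1491 and 848.4 CPM in mimic IP and 631.0 and 380.2 in the flow-through (log2 fold change 1.37, SE 0.61, adjusted p = 0.201), with 753.8 and 288.2 in control IP and flow-through. SLC25A5, the ADP/ATP carrier of growing cells, stood at 97.6 and 84.6 CPM against 443.9 and 158.4 (-1.56, SE 0.66, 0.184), with 88.7 and 254.2 in the control fractions. Its relative SLC25A4, chosen after its values were seen, stood at 234.1 and 108.2 against 63.6 and 95.3 (1.26, SE 0.64, 0.251). SLC25A3 and SLC25A4 were thus above the flow-through and SLC25A5 below it in mimic and control cells alike, with no call for any of them. SLC25A5 has near-identical copies in the genome, and counting only uniquely mapped pairs may leave out part of its reads.

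Among the plasma membrane carriers, the glucose carriers SLC2A3 and SLC2A1 lay on opposite sides. SLC2A3 (GLUT3; chromosome 12, 7919230 to 8019007, minus strand), a carrier of high glucose affinity, stood at 61.7 and 75.5 CPM in mimic IP, 13.5 and 10.3 in mimic flow-through, 77.2 in control IP and 18.1 in control flow-through. The fractions were far apart in mimic and control, and the replicates close (log2 fold change 2.69, SE 0.64, adjusted p = 0.0647; 2.69, SE 0.77 and 0.0124 with the block); its close copy SLC2A14 was under the count limit. SLC2A1 (GLUT1; chromosome 1, 42925353 to 42958893, minus strand), the basal glucose carrier, stood at 64.8 and 95.3 CPM in mimic IP, 191.4 and 343.5 in mimic flow-through, 271.0 in control IP and 319.8 in control flow-through. Its mimic IP values were the lowest, and the control fractions were near each other (log2 fold change -1.58, SE 0.63, adjusted p = 0.164). SLC2A6, a related carrier of unsettled place, stood at 1.96 and 2.57 CPM against 7.63 and 30.7 (-2.93, SE 0.86, 0.0954; 0.0187 with the block), at GC contents of 63.4% for SLC2A6, 53.3% for SLC2A1 and 45.5% for SLC2A3. SLC16A3, the lactate exporter MCT4, overlapped between the mimic fractions, with 366.2 and 211.7 CPM in the IP and 225.2 and 602.6 in the flow-through (-0.37, SE 0.66, 0.756), and stood at 867.6 in control IP and 334.7 in control flow-through.

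Of the 25 amino acid carriers outside mitochondria, 1 reached a log2 fold change of 1 (4% against 20.04% of all genes). At -1 or lower lay 10 (40% against 26.9%). Their median was -0.01, against -0.11 over all genes tested, and 12 of the 25 lay above 0. SLC7A5 (LAT1; chromosome 16, 87830023 to 87869507) stood at 208.6 and 510.1 CPM in mimic IP, 659.0 and 2440 in mimic flow-through, 456.5 in control IP and 680.1 in control flow-through (log2 fold change -1.95, SE 0.76, adjusted p = 0.159). SLC3A2, the chain that SLC7A5 and SLC7A11 need at the surface, overlapped, with 58.7 and 96.9 CPM against 76.9 and 293.7 (-1.10, SE 0.72, 0.368). SLC1A5, the glutamine carrier ASCT2, stood at 17.6 and 22.3 CPM against 60.6 and 127.0 (-2.08, SE 0.65, 0.109), with 66.8 and 107.7 in the control fractions, and its mimic IP values were below those of every other library. SLC7A11, the cystine carrier, stood at 15.8 and 25.6 against 23.7 and 9.14 (0.50, SE 0.71, 0.689) and SLC38A2, which imports glutamine and alanine, at 171.1 and 99.7 against 168.2 and 20.7 (0.69, SE 0.84, 0.638). Both overlapped between the fractions, and the 2 flow-through values of SLC38A2 differed more than its fractions did. Other members named for a high fold change were SLC19A2, a thiamine carrier, with 18.9 and 33.02 CPM against 10.7 and 5.33 (1.86, SE 0.71, 0.154), SLC10A7 with 5.72 and 7.11 against 4.49 and 1.14 (1.35, SE 0.85, 0.344), and the iron exporter SLC40A1 with 11.1 and 12.7 against 7.20 and 3.37 (1.33, SE 0.74, 0.291).

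Ion and metal carriers also lay on both sides. SLC4A2, a chloride/bicarbonate exchanger, stood at 54.99 and 55.8 CPM in mimic IP and 76.3 and 570.3 in the flow-through (log2 fold change -2.40, SE 0.85, adjusted p = 0.136), and without flow-through replicate 2 its log2 fold change was -0.29. The same library set the values of the zinc carriers SLC39A3, with 8.12 and 8.76 against 11.9 and 91.9 (-2.47, SE 0.89, 0.140), and SLC39A4, with 12.1 and 24.6 against 34.9 and 130.2 (-2.01, SE 0.76, 0.152), which were -0.32 and -0.75 without it. The phosphate carrier SLC20A1 stood at 279.5 and 201.4 against 146.7 and 87.1 (1.2, SE 0.60, 0.248). The zinc exporter SLC30A1 stood at 34.3 and 43.6 against 32.6 and 70.7 (-0.25, SE 0.64, 0.833), and the zinc importer SLC39A6 at 33.3 and 16.4 against 48.6 and 21.3 (-0.33, SE 0.69, 0.794). Both overlapped between the fractions.

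Among the carriers of other intracellular membranes, 5 of 38 had both IP values above the flow-through (13.2%, background 28.1%) and 12 both below it (31.6%, near the background of 28.5%). SLC37A3 (chromosome 7, 140293693 to 140404433, minus strand), a lysosomal member of the sugar phosphate carriers, stood at 43.4 and 90.0 CPM in mimic IP, 12.96 and 17.9 in mimic flow-through, 183.6 in control IP and 33.4 in control flow-through. It was in the IP above the flow-through in both kinds of cells, and highest in control IP (log2 fold change 2.28, SE 0.67, adjusted p = 0.0947; 2.2, SE 0.76 and 0.0429 with the block). SLC49A3, of unsettled place, stood at 1.42 and 1.62 CPM against 3.81 and 16.4 (-2.59, SE 0.90, 0.131).

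**Figure D2:**
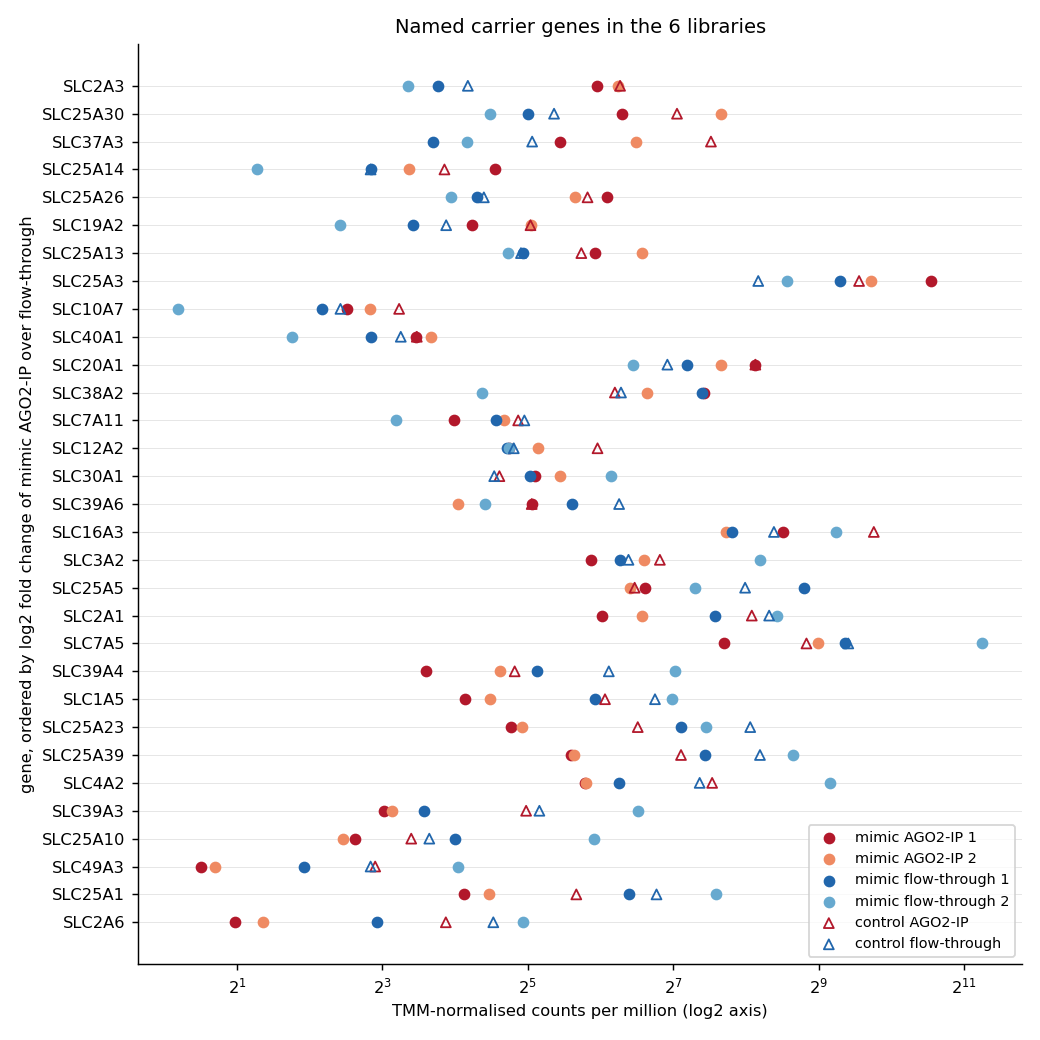
TMM-normalised CPM (log2 axis) of the named carrier genes in each of the 6 libraries, ordered by the log2 fold change of mimic IP over mimic flow-through. Filled circles are mimic and open triangles control libraries, red tones IP and blue tones flow-through; SLC2A3 at the top has all 3 IP values between 61.7 and 77.2, and at the bottom the mimic IP values lie lowest.

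Proteins that work with carriers, and carriers outside the symbol rule, were given as a fixed list of 14 genes, none of which was called by edgeR without the block. With the block 2 were called lower (background 5.08%), UCP2 and BSG. UCP2, the mitochondrial uncoupling carrier, had a log2 fold change of -3.02 (edgeR adjusted p = 0.0587, and 0.00405 with the block). BSG, the chaperone that brings SLC16A1 and SLC16A3 to the surface, had one of -2.88 (0.0718, and 0.0102 with the block). DESeq2 called these 2 lower (background 8.5%) and also TIMM9, a chaperone of carrier import into mitochondria named after its values were seen. TIMM9 had a log2 fold change of -2.45 (adjusted p = 0.134 with edgeR and 0.0215 with DESeq2). The list lay on both sides. Above 0 were TIMM10 (1.63), VDAC1 (1.54), TXNIP (1.49), VDAC3 (0.96), TIMM22 (0.94) and MTCH2 (0.66), none of them called by either method, and the rest lay below 0. A list of 14 genes is too short to be set against these backgrounds. UCP2 stood at 393 and 537 counts in mimic IP against 3999 and 4414 in the flow-through, and BSG 1936 and 2256 against 9719 and 22645.

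In control cells, IP and flow-through were each 1 library, so their log2 ratios have no replicate check. Of 119 members with at least 200 counts over both, 17 had a log2 ratio of at least 1 (background 15.9%) and 12 one of -1 or lower (background 18.1%), with a median of 0.07. Scaled by library size alone, which moved the median of all genes to 0.89, these counts were 57 and 2, or 47.9% and 1.68% of members against 46.1% and 5.0% of all genes. After TMM normalisation, on which these signs rest, the sides of the mimic comparison recurred unevenly. Of the 24 members with both mimic IP values above the flow-through and a control value, 22 had a control log2 ratio above 0. This was 91.7%, against 76.6% of all genes so placed. Of the 46 with both below, 33 had one below 0, a share of 71.7% that was lower than the 86.5% of all genes. SLC2A3 had a control log2 ratio of 2.18, SLC37A3 of 2.55, SLC25A30 of 1.79, SLC25A3 of 1.49, SLC25A5 of -1.41 and SLC25A1 of -0.99. The fraction difference between mimic and control was tested as an interaction over all 6 libraries, with each lone control library assumed to vary like the mimic libraries. Of 119 members tested, none was called and none had an unadjusted p under 0.05 (smallest adjusted p = 0.974), where 0% of all genes were called in either direction and 83 of 8225 had an unadjusted p under 0.05.

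**Figure D3:**
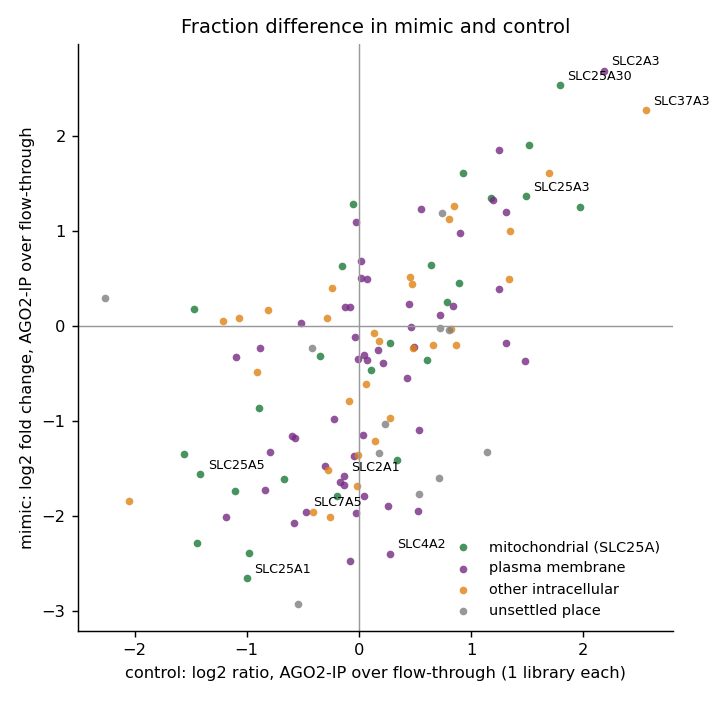
Log2 fold change of IP over flow-through in mimic cells (2 libraries a fraction, vertical axis) against the log2 ratio in control cells (1 library a fraction, horizontal axis) for the members with a control value, coloured by place. SLC2A3, SLC25A30 and SLC37A3 lie at the upper right, at control log2 ratios of 2.18, 1.79 and 2.55, and SLC4A2 lies at -2.40 and 0.28.

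The comparison nearest to the study's question is mimic IP over control IP, and in it the mitochondrial carriers had values near those of all genes and the other carriers lower ones. Of 157 members with a value, 76 had a log2 ratio of -1 or lower, 48.4% against a background of 17.4%, and 4 one of at least 1, against a background of 17.3%. The median was -0.98 over the members and 0.02 over all genes. By place it was -0.15 for 35 SLC25A genes, -1.07 for 67 plasma membrane carriers, -1.24 for 36 other intracellular carriers and -1.88 for 16 of unsettled place. A log2 ratio of -1 or lower was found in 4 SLC25A genes, 35 plasma membrane carriers, 23 other intracellular carriers and 13 of unsettled place. In each mimic library taken alone the SLC25A genes had the highest median of these 4 places, with -0.24 and -0.32 in replicates 1 and 2, against -1.21 and -0.95 for the plasma membrane carriers, -1.30 and -0.93 for the other intracellular carriers and -2.11 and -1.83 for those of unsettled place, so that the plasma membrane and other intracellular carriers changed order between the libraries. In both libraries 56 members were at -1 or lower (35.7%, against 12.1% of all genes). Both mimic libraries were below the control in 54 of the 67 plasma membrane carriers and 30 of the 36 other intracellular carriers. The same held for 17 of the 35 SLC25A genes and for 4541 of all 11450 genes. Both were above the control in 4 plasma membrane carriers, 2 other intracellular carriers and 10 SLC25A genes, against 4716 of all genes.

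There was 1 control IP library, and the size of its deviation from another such library is unknown. In edgeR's fit over all 6 libraries, chosen after seeing the data and with the lone control library assumed to vary like the mimic libraries, none of the 157 members was called in either direction (smallest adjusted p = 0.544; all genes 0% higher and 0.0262% lower), and 25 had lower and 1 a higher value at an unadjusted p under 0.05, 15.9% and 0.637% against 5.05% and 3.0% of all genes. No test of the difference between the places was made.

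**Figure D4:**
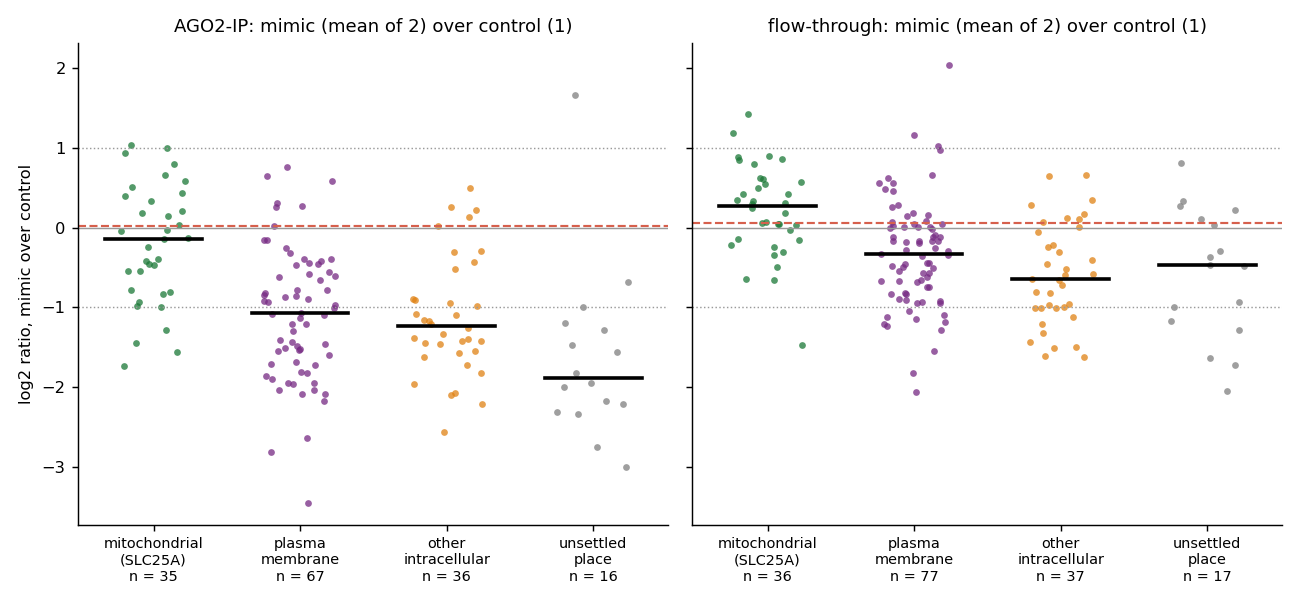
Log2 ratio of mimic over control in the IP (left) and flow-through (right) for each member by place, with the median of each group (black bar), of all genes tested (dashed line) and log2 ratios of 1 and -1 (dotted lines). In the IP the SLC25A genes have a median of -0.15 and the plasma membrane and other intracellular carriers have medians of -1.07 and -1.24.

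Several carriers of glucose, glutamine, lactate and anions were on the low side. SLC2A1 had log2 ratios of -2.15 and -1.57 in mimic IP libraries 1 and 2 over the control IP, SLC1A5 -2.01 and -1.64, SLC16A3 -1.33 and -2.10, and SLC4A2 -1.84 and -1.80. SLC7A5 had -1.21 and 0.10 and SLC3A2 -1.02 and -0.28, so that the replicates did not give 1 value. SLC2A3 had -0.41 and -0.10. The lowest value was that of SLC43A2, an amino acid carrier chosen after its values were seen, at 1.77 and 2.74 CPM in mimic IP against 23.5 in control IP, with 3.83 and 15.6 in mimic flow-through and 17.5 in control flow-through (log2 ratio -3.45). SLC37A2, also chosen so, had 34.1 and 32.3 CPM against 186.5 (log2 ratio -2.56), with 62.6 and 65.0 against 213.1 in the flow-through.

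Among the SLC25A genes above 0 in both mimic libraries were SLC25A3 (0.90 and 0.11 in the mimic libraries 1 and 2), SLC25A13 (0.10 and 0.77) and SLC25A24, an ATP-Mg/phosphate carrier chosen after its values were seen (0.97 and 0.89). SLC25A5 was at 0.06 and -0.13. The 4 at -1 or lower were SLC25A1 (-1.63 and -1.27), SLC25A39 (-1.59 and -1.53), SLC25A23 (-1.83 and -1.66) and SLC25A45 (-1.12 and -1.44), of which the first 3 were also among the lowest against the flow-through. The 4 members with a log2 ratio of at least 1 were SLC25A16 (1.0), SLC25A53 (1.03), SLC4A1AP, which is no carrier (1.93), and SLC30A9 (1.66), a zinc transporter listed here as of unsettled place; these 4 and SLC25A45 were chosen after their values were seen.

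The medians of the mitochondrial carriers were above those of the other carriers within each class of GC content. Under 45% GC, the median log2 ratio of the IP was 0.54 for 12 SLC25A genes, -0.58 for 23 plasma membrane carriers and -0.89 for 15 other intracellular carriers, with 0.66 over all protein-coding genes tested of that class. From 45% to 55% it was -0.24 for 11 SLC25A genes, -1.03 for 18 plasma membrane carriers and -1.51 for 6 other intracellular carriers, with -0.10 over protein-coding genes. Over 55% it was -0.96 for 12 SLC25A genes, -1.70 for 26 plasma membrane carriers and -1.42 for 15 other intracellular carriers, with -0.75 over protein-coding genes. Set against the protein-coding median of its own GC class, the log2 ratio was below it for 62 of 67 plasma membrane carriers, 35 of 36 other intracellular carriers and 14 of 16 of unsettled place, and for 22 of 35 SLC25A genes. With each library's GC trend removed, 61 members were at -1 or lower (38.9%, all genes 12.8%), and the medians were -0.09 for SLC25A, -0.98 for the plasma membrane and -0.87 for other intracellular carriers.

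**Figure D5:**
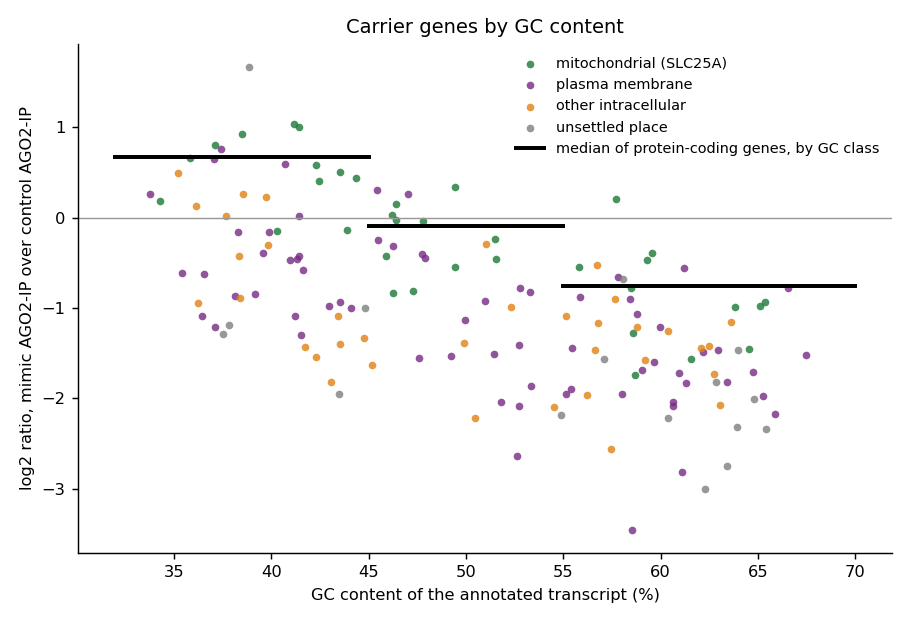
Log2 ratio of mimic IP over control IP for each member against the GC content of its annotated transcript in percent, coloured by place, with the median of protein-coding genes tested in each of 3 GC classes (black lines at 0.66, -0.10 and -0.75). Below the line of their class lie 22 of 35 SLC25A genes, 62 of 67 plasma membrane carriers and 35 of 36 other intracellular carriers.

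By substrate, the medians of the same log2 ratio were lowest for sugar and monocarboxylate carriers (-1.58, n = 19) and for carriers of nucleosides, vitamins, choline and lipids (-1.54, n = 14), followed by carriers in no substrate group (-1.44, n = 14) and those of inorganic ions and phosphate (-1.33, n = 21), metals (-0.99, n = 22) and amino acids (-0.93, n = 24). The 5 nucleotide sugar carriers of the Golgi had a median of -0.43. Within SLC25A, the carriers of phosphate and ATP-Mg had a median of 0.36 (n = 4), those of cofactors, nucleotides and metals -0.26 (n = 12), of amino acids -0.46 (n = 7) and of di- and tricarboxylates -0.93 (n = 3).

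In the flow-through the SLC25A genes again had the highest median of the 4 places, while the order of the others differed from that in the IP. Of 170 members, 29 had mimic over control at a log2 ratio of -1 or lower (background 10.2%) and 5 one of at least 1 (background 10%); scaled by library size alone, which moved the median of all genes to 0.52, these counts were 11 and 24, or 6.47% and 14.1% of members against 4.05% and 25.98% of all genes. Medians were 0.27 for 36 SLC25A genes, -0.33 for 77 plasma membrane carriers, -0.65 for 37 other intracellular carriers and -0.47 for 17 of unsettled place, with 0.05 over all genes. The mimic libraries differed, with a median over the members of -0.44 in flow-through replicate 1 and 0.01 in replicate 2, against 0.15 and 0.03 over all genes. The mimic IP and mimic flow-through comparisons use different control libraries, while the IP over flow-through and the mimic over control comparisons share the mimic IP libraries. In the fit over all 6 libraries no member was called in the flow-through (smallest adjusted p = 0.9999; all genes 0% higher and 0.0163% lower), and 2 had an unadjusted p under 0.05, both lower.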

How the data were processed

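AGO2-IP and flow-through RNA of MDA-MB-231 cells was sequenced in 6 libraries. Per the submitters' processing notes, the authors used FastQC 0.11.9, cutadapt 3.5, STAR 2.7.11b and GRCh38. The deposited files hold raw counts per gene, not normalized, from STAR, which keeps pairs that map to 1 place and 1 gene. The annotation release is not given in the sources used here. Column 2, unstranded, was used, because columns 3 and 4 were about even. Rows that name no gene (21.4% to 95.0% of read pairs) were left out. Names came from GENCODE 44 (60463 of 60708 identifiers).

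Genes with at least 200 counts over the 4 mimic libraries were tested with edgeR 4.0.16 (R 4.3.3; TMM, quasi-likelihood test, Benjamini-Hochberg over all 13078 genes). Same-numbered libraries are IP and flow-through of a biological replicate by their labels, and their deviations from the group means correlated across genes (Pearson's r 0.324, Spearman's rho 0.236), so values with a replicate block are given where they change a call. DESeq2 1.42.0 and other normalizations, filters, strand columns and left-out libraries were alternatives. Control comparisons are log2 ratios of TMM-normalised CPM with a prior count of 2. Depth of 7772149 to 48544756 counts covers counting error only; reads carry no molecular identifiers.

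The members and the lists of places, substrates and partners were chosen with earlier results of these data known. Named genes are the 4 highest and 4 lowest SLC25A genes and the 6 highest and 6 lowest others by log2 fold change with at least 200 counts in every library of the higher fraction, fixed genes of known role, and called genes. Of the genes and sites named by these rules, 1 gene and 1 site are not reported here. Scripts were tested on simulated data.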

Additional observations from a re-analysis of the deposited data

Results flagged for a closer look

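SLC4A2 was singled out because its mimic and control values lay on opposite sides. Both mimic IP values were below both flow-through values (log2 fold change -2.40, SE 0.85), and the control log2 ratio was 0.28 from 1 library per fraction. The test of this difference gave -2.72 (SE 1.39, edgeR adjusted p = 0.974) and was not called. Groups held at most 2 libraries, so no group could be searched for a single library that stands apart.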

How the results depend on the processing

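At 2 libraries a group, the count of members called depended on the fit. Members called higher and lower (0 and 0) became 3 and 7 with the replicate block (backgrounds 4.6% and 5.08%). They became 5 and 16 with DESeq2 (backgrounds 6.74% and 8.5%). With the GC trend removed they were 1 and 1, or 0.562% each, against 3.58% and 2.61% of all genes. With both the block and the GC trend removed they were 8 and 17, or 4.49% and 9.55%, against 13.9% and 12.5% of all genes. The counts also moved with 1 library left out, where the lone library of a fraction is assumed to vary like the others. For all genes (32 and 54) the counts were 13 and 33 with DESeq2 size factors, 9 and 35 by library size alone, 144 and 86 with a summed count of at least 10, 88 and 144 with at least 1000, 1 and 17 from column 3, 2 and 12 from column 4, 601 and 664 with the replicate block, 0 and 0 with protein-coding genes only, 468 and 341 with the GC trend removed, 1815 and 1632 with both, 882 and 1112 with DESeq2, and 2 to 2458 and 21 to 2416 with 1 library left out. DESeq2 gave no adjusted p for 508 genes, 7 of them members. The causes were not tested.

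With a summed count of at least 10, the median log2 fold change was 0.10 for SLC25A, -0.10 for the plasma membrane, 0.24 for other intracellular carriers and 0.24 for all genes. The medians of SLC25A, other intracellular carriers and all genes thus turned from below to above 0. Those of SLC25A and the plasma membrane stayed below that of all genes, and that of the other intracellular carriers came level with it. With 1 library left out, the medians ran from -0.28 to -0.11 for SLC25A, from -0.81 to -0.32 for the plasma membrane, from -0.35 to -0.12 for other intracellular carriers and from -0.20 to 0.081 for all genes. The median of all genes was -0.015 with the block, -0.053 with the GC trend removed and -0.039 with both.

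Control log2 ratios of at least 1 and of -1 or lower counted 57 and 2 members when scaled by library size alone (47.9% and 1.68%, all genes 46.1% and 5.0%). In mimic over control IP, members at 1 or above were 2 by library size alone, 2 from column 3, 1 with the GC trend removed and 3 to 4 with a library left out, and those at -1 or lower 63 to 79 with a library left out. In the flow-through, 24 and 11 members passed by library size alone, 8 were at 1 or above with the GC trend removed, and 4 to 22 and 32 to 48 passed with a library left out. The calls of edgeR over all 6 libraries were 0 in each direction and fraction.

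Directions turned for SLC30A1 (0.18 with a summed count of at least 10; -0.72 to 0.43 with 1 library left out), SLC7A11 (-0.35 with the GC trend removed, -0.37 with the block too; -0.024 to 1.33 with 1 library left out), SLC12A2 (-0.38 and -0.32 with the GC trend removed, without and with the block), SLC3A2 (-1.77 to 0.19 with 1 library left out), SLC38A2 (-0.15 to 2.85), SLC16A3 (0.095 with a summed count of at least 10, 1.05 and 1.005 with the GC trend removed, without and with the block; -0.92 to 0.52 with 1 library left out) and SLC39A6 (-0.91 to 0.37). None of these genes was called.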
